A study of Mus musculus with 4 samples.

Results

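The protein-coding genes of the cytosolic ribosome were followed through the accessible DNA of mouse CD8+ lymphocytes. Members were taken by symbol: every protein-coding gene of the mm10 gene table whose name begins Rpl or Rps followed by a number, plus Rpsa, Rplp0, Rplp1 and Rplp2, without the S6 kinase genes and the pseudogene symbols. The rule gave 89 genes of 21631 protein-coding genes on chromosomes 1 to 19 and X, 54 named for the large subunit and 35 for the small one. It used no measured value. Of the 89, 77 carry the name of a canonical ribosomal protein, and 12 are paralogues, retrogene copies or, for Rps19bp1, a binding partner of a ribosomal protein. Accessibility was measured by ATAC-seq, in which the transposase Tn5 inserts adapters into open DNA, in cells of the BALB/c strain that the series title calls tumour-infiltrating. One group was unstimulated and untreated, one unstimulated and given phenelzine, one stimulated and untreated, and one stimulated and given phenelzine. Stimulation was with phorbol myristate acetate and ionomycin, which bypass the T cell receptor, for 2 h. Phenelzine is an inhibitor of monoamine oxidases that also inhibits the histone demethylase LSD1. Each condition was 1 library with no replicate, so no value below has an error between animals and no difference between conditions or gene groups was tested. The tumour, the age of the animals, the sorting of the cells and the way phenelzine was given are not stated in the sources used here.

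Ribosomal proteins assemble with ribosomal RNA into the small subunit, which decodes the message, and the large subunit, which joins amino acids. Nearly every cell needs them in similar amounts, and their genes are short, strongly transcribed, often hosts of small nucleolar RNA genes in their introns, and surrounded by many processed pseudogenes elsewhere in the genome. Their messages begin with a C followed by a run of pyrimidines, the terminal oligopyrimidine (TOP) tract, through which mTOR and LARP1 control translation when T cells are activated. An open promoter is a precondition of transcription and does not measure the amount of RNA.

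The lists held 6519 peaks in unstimulated untreated, 7929 in unstimulated phenelzine, 10405 in stimulated untreated and 9322 in stimulated phenelzine, and values are given in that order throughout unless named. Read depth is unknown, because the lists give no read counts. A gene-end peak was a called peak within 1 kb of either end of a gene. Each peak carries the fold enrichment over background and the −log10 q that the authors' peak caller gave it. Both belong to the peak's own list, so values from several lists are set side by side as descriptions and no change is read from them. The labelled cell type could not be checked at gene ends: of 9 CD8 T cell markers in the gene table, 0, 1, 2 and 0 had a gene-end peak (Cd5 and Cd3d), and within 20 kb of the gene 3, 3, 5 and 3 had a peak. Markers of B cells, myeloid cells, NK cells, epithelial cells and stroma had no gene-end peak in any list. Zbtb7b, from the list of 3 CD4 T cell markers, had one in all 4. Within 20 kb a peak was present at 2 of 5 B cell markers in each list, at 2, 3, 2 and 2 of 5 myeloid markers, at 1, 1, 3 and 2 of 3 CD4 T cell markers, at 0, 0, 1 and 1 of 3 NK cell markers, at 0, 0, 1 and 2 of 4 epithelial markers and at 0, 2, 2 and 2 of 5 stromal markers. Their part in the results below was not tested.

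Most ribosomal protein genes had an open gene end in every condition. A gene-end peak was present at 57, 64, 69 and 70 of the 89 genes, or 64.0%, 71.9%, 77.5% and 78.7%. Over all protein-coding genes the shares were 23.0%, 25.6%, 29.3% and 27.4%. In at least 1 list 75 members (84.3%) had such a peak, against 34.9% of all genes, and 50 members (56.2%) had one in all lists, against 17.7%. A further 15 members (16.9%, beside 6.25% of all genes) had one in 3 lists and 5 (5.62%, beside 4.76%) in 2. Another 5 (5.62%, beside 6.17%) had one in 1 list and 14 (15.7%, beside 65.1%) in none. With every list shortened to its strongest 6519 peaks, 57, 60, 62 and 63 members had one, beside 23.0%, 23.3%, 23.7% and 23.4% of all genes. With only peaks of −log10 q of at least 3, the members numbered 32, 40, 55 and 48, beside 14.0%, 14.9%, 20.2% and 16.9%, and 21 were in all lists, beside 7.79%. The share open in all lists was much the same for both subunits: 30 of 54 large subunit genes (55.6%) and 20 of 35 small subunit genes (57.1%) were in all lists. The same was seen for the 30 members with a small nucleolar RNA gene inside, of which 17 (56.7%) were in all lists, beside 33 of the 59 without one (55.9%).

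**Figure D1:**
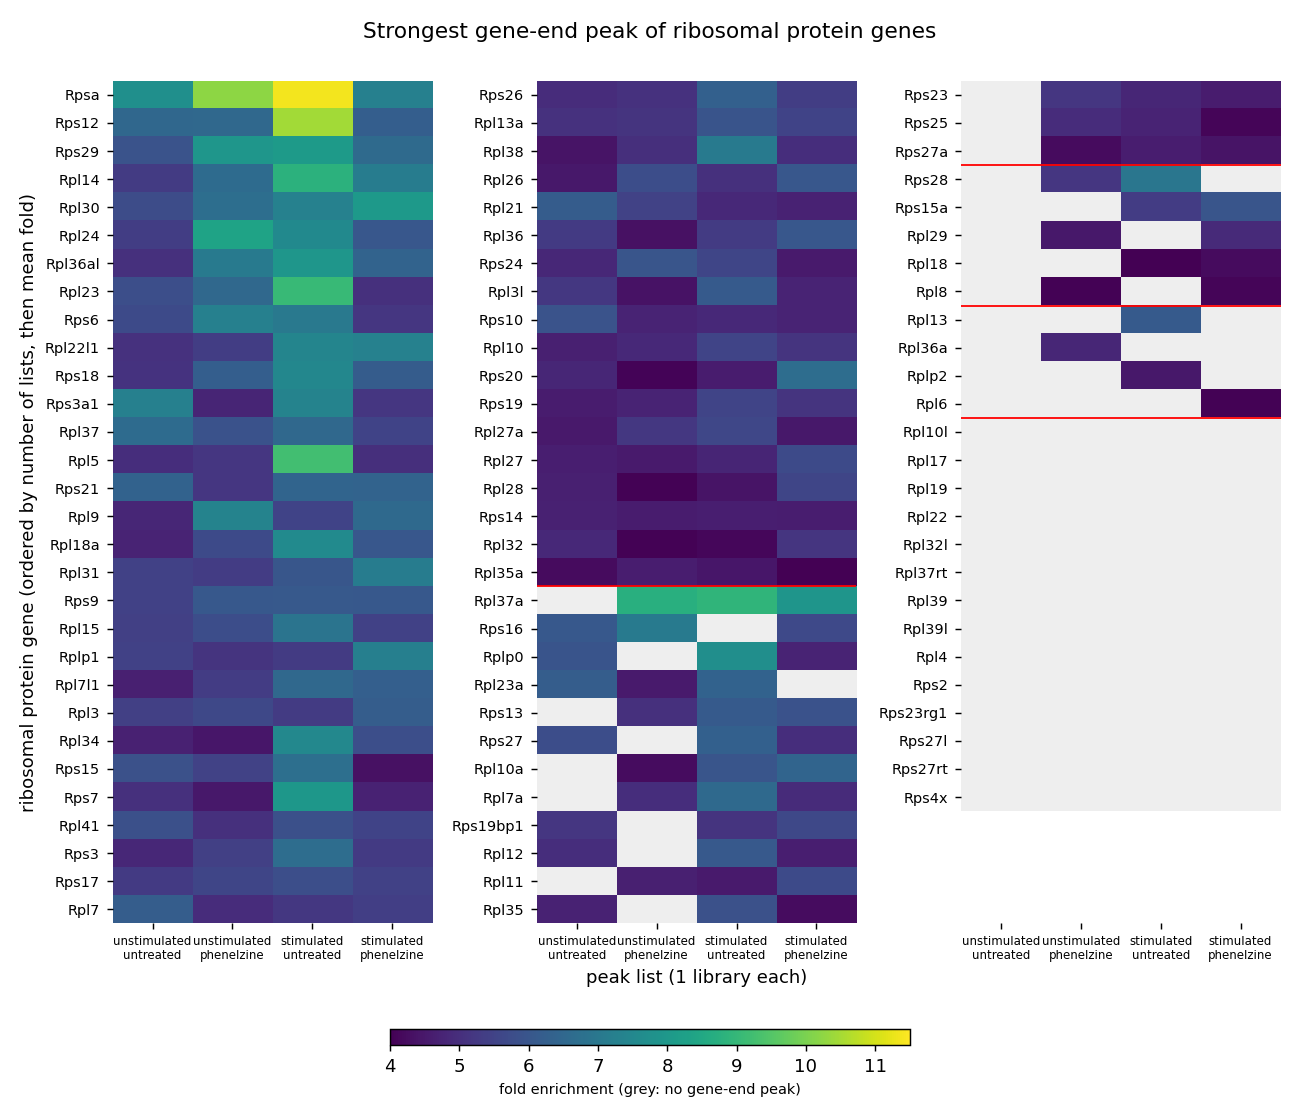
Heat map of the strongest gene-end peak of the ribosomal protein genes, 3 of the 89 not drawn (vertical axis), in the 4 lists (horizontal axis, 1 library each); colour is the fold enrichment, grey means no gene-end peak, and red lines separate genes by the number of lists. Rpsa in the stimulated untreated list has the highest value, 11.37, and 14 genes are grey in all 4 lists.

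The paralogues were covered less often than the canonical genes. Of the 77 canonical genes, 70 (90.9%) had a gene-end peak in at least 1 list and 46 (59.7%) in all. Of the other 12 names, 5 (41.7%) had one in any list, namely Rpl3l, Rpl7l1, Rpl22l1, Rpl36al and Rps19bp1. The peak counted for Rpl3l, the muscle paralogue of Rpl3, was centred 8676 to 8714 bp from its start, at its far end, and within 1 kb of an end of Msrb1 as well. Rpl22l1, a paralogue of Rpl22, had fold enrichments of 5.06, 5.36, 7.41 and 7.29 at its start. Rpl36al, an intronless copy of Rpl36a, had 5.05, 7.07, 7.95 and 6.39, at a peak within 1 kb of an end of Mgat2 too. Neither Rpl10l nor Rpl39l, known as testis paralogues, had a gene-end peak, and the same held for Rpl37rt, Rpl32l, Rps23rg1, Rps27rt and Rps27l. Reads that map to near-identical copies may be shared or lost in counting, and 309 pseudogenes with ribosomal protein names stand in the gene table.

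The promoters of 6 members are shown because the results turn on them: Rpsa, the strongest peak of the family; Rpl15, open in all lists with an ETS match and a pyrimidine start; Rpl37a, missing from 1 list although strong in the other 3; Rps28, whose pattern over the lists crosses; Rps27, missing only from unstimulated phenelzine; and Rps15a, held only by the stimulated lists. The sequences are from RefSeq on build GRCm38.p6 (mm10), 150 bases before to 20 bases from the start site, 5′ to 3′ on the gene's strand. Capitals mark the ETS letters CCGGAAG, the YY1 letters AAGATGG, either strand, and a C at the start site followed by at least 4 more pyrimidines, for as long as they run. They are, in the order printed, chr9:120127616-120127785 on the plus strand, chr14:18270967-18271136 on the minus strand, chr1:72711110-72711279 on the plus strand, chr17:33824543-33824712 on the minus strand, chr3:90213629-90213798 on the minus strand and chr7:118116128-118116297 on the minus strand.
Rpsa: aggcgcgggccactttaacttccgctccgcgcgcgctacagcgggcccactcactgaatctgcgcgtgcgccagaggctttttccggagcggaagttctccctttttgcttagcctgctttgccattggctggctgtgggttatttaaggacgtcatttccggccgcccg
Rpl15: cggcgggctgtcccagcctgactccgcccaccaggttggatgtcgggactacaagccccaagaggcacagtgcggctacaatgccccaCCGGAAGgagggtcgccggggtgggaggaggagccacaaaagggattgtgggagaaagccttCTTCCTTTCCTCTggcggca
Rpl37a: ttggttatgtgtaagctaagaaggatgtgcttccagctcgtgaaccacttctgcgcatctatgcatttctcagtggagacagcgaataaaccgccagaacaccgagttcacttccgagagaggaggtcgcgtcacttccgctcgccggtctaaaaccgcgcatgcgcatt
Rps28: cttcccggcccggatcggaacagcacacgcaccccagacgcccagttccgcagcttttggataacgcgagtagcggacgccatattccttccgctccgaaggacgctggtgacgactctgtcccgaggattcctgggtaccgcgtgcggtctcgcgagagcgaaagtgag
Rps27: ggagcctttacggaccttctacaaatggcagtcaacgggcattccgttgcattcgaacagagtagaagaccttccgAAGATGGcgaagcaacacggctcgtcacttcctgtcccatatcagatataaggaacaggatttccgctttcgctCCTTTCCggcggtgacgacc
Rps15a: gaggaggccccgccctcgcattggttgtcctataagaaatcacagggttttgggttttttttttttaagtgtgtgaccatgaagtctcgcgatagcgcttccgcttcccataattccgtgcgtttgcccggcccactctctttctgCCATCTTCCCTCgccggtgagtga
In Rpl15 the ETS match lies 62 bases before the start. In Rps27 the YY1 match lies 74 bases before the start. In Rps15a the YY1 match, on the opposite strand, begins 4 bases before the start and runs into the pyrimidine stretch. Rpsa, Rpl37a and Rps28 hold none of these marks in the stretch shown, and Rpsa has an ETS match further upstream in the 300-base window used for counting.

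Among small subunit genes Rpsa and Rps12 had the 2 highest fold enrichments, both in stimulated untreated cells. Rpsa (chr9:120127766-120132369), whose product joins the small subunit late and is also known as the laminin receptor, had fold enrichments of 7.73, 10.23, 11.37 and 7.26 and −log10 q of 7.99, 14.31, 17.83 and 7.49. Its peaks, centred 58 to 84 bp before the start shown above, ranked 235 of 6519, 77 of 7929, 60 of 10405 and 429 of 9322. Rpsa was thus among the strongest peaks of any kind in each list. Rps12 (chr10:23785183-23787383), a protein of the beak of the small subunit, had fold enrichments of 6.51, 6.54, 10.47 and 6.24 and −log10 q of 5.45, 6.06, 14.83 and 5.30, so that 1 list, stimulated untreated, stood apart from the other 3. Rps29, a zinc-binding protein near the decoding site, had 5.91, 7.93, 8.10 and 6.58. Rps9, which lies at the mRNA entry, had 5.46, 6.07, 6.09 and 6.07. Rps6, the protein phosphorylated by the S6 kinases, had 5.67, 7.26, 7.02 and 5.20. Rps6 was higher in the 2 middle lists, unstimulated phenelzine and stimulated untreated, as were Rpsa and Rps29.

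Among large subunit genes Rpl30, Rpl37, Rpl15, Rpl3 and Rpl31 belonged to the 10 members whose weakest −log10 q over the lists was highest. Rpl30, an RNA-binding protein of the interface between the subunits, had fold enrichments of 5.73, 6.71, 7.29 and 8.04. Rpl37 had 6.63, 5.88, 6.52 and 5.50 and Rpl15 had 5.42, 5.76, 6.88 and 5.46. Rpl3, which reaches toward the site of peptide bond formation, had 5.42, 5.63, 5.30 and 6.2, and Rpl31, near the exit of the nascent chain, had 5.45, 5.32, 6.02 and 7.15. These genes were open in all lists, with no list highest for all of them. Rpl23, Rpl5 and Rpl14 had their highest value in stimulated untreated cells. Rpl23 had 5.80, 6.53, 9.05 and 5.05, and Rpl14 had 5.29, 6.63, 8.83 and 7.14. Rpl5, which carries 5S ribosomal RNA and with Rpl11 binds MDM2, had 4.98, 5.19, 9.22 and 5.02, its stimulated untreated value lying far from 3 nearly equal ones.

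The 3 stalk proteins, which recruit translation factors to the large subunit, followed 3 patterns. Rplp1 was open in all lists, with fold enrichments of 5.46, 5.14, 5.30 and 7.23 and −log10 q of 3.62, 3.09, 3.60 and 7.09. Rplp0 (chr5:115559467-115563729), the base of the stalk, had 5.95, 7.72 and 4.74 in the other 3 lists, and no gene-end peak in unstimulated phenelzine cells, where the nearest peak lay 68051 bp away. Rplp2, the partner of Rplp1, had a peak in stimulated untreated cells only, with a fold enrichment of 4.49 and a −log10 q of 2.29, within 1 kb of an end of Pidd1 as well.

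Within each list the ribosomal protein genes with a peak were near the typical gene in the unstimulated lists and above it in the stimulated ones. Their median −log10 q was 3.21, 3.29, 5.16 and 3.94, against 3.40, 3.34, 4.05 and 3.50 over all genes with a gene-end peak in the same list. The members above the median of all such genes were 27 of 57 (47.4%), 30 of 64 (46.9%), 47 of 69 (68.1%) and 39 of 70 (55.7%). In the top 10% of genes stood 3, 10, 13 and 8 members, or 5.26%, 15.6%, 18.8% and 11.4%. Median fold enrichments were 5.21, 5.18, 6.09 and 5.48 for members and 5.30, 5.21, 5.50 and 5.27 for all. The members ranged from 4.23 to 7.90, from 4.03 to 10.23, from 4.01 to 11.37 and from 3.97 to 8.04. Stimulated untreated was the longest list and had the highest member values, and the part of depth in this was not tested.

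**Figure D2:**
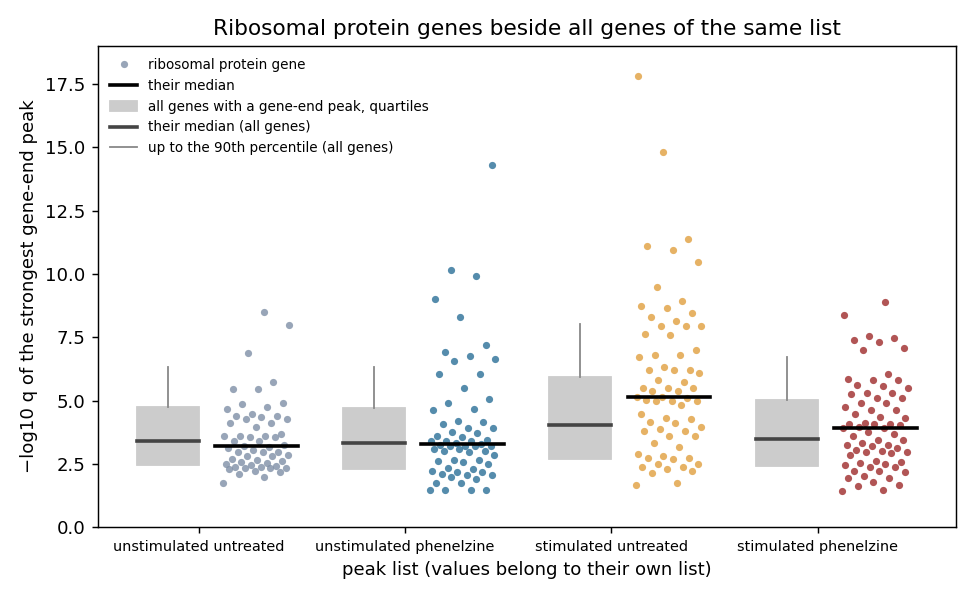
The −log10 q of the strongest gene-end peak (vertical axis) in the 4 lists (horizontal axis): each point is a ribosomal protein gene with a black line at their median, and grey boxes give the quartiles, median and 90th percentile of all genes with a gene-end peak. The member median, 5.16, is farthest above that of all genes, 4.05, in stimulated untreated cells, and in both unstimulated lists the member median is the lower one.

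The peaks sat at the start of the genes. Strand and start site were known for 69 of the 89 members. Among those with a gene-end peak, the peak's centre was within 150 bp of the start in 39 of 42 (92.9%), 42 of 46 (91.3%), 46 of 53 (86.8%) and 44 of 52 (84.6%), against 70.4%, 70.2%, 70.0% and 71.2% of all genes. Among peaks centred within 1 kb of the start, counted in bp with upstream negative, the median member centre was at -35, -31, -47 and -44.5. The median of all genes was at -62, -59, -57 and -57. Median widths of member peaks were 166, 168.5, 185 and 161.5 bp, beside 152, 162, 180 and 160.5 bp. A smaller share of members than of all genes had another gene's end at the same peak: 10, 12, 18 and 13 members (17.5%, 18.8%, 26.1% and 18.6%) against 35.1%, 34.6%, 33.8% and 34.1% of all genes. The ribosomal protein genes are short, with a median length of 3183 bp against 17329 bp for all genes, and 15 of them are under 2000 bp, so their 2 end windows can meet. Peaks near the end of a neighbour included those of Rps18 with Vps52, Rpl9 with Lias, Rpl37 with Card6, Rpl7a with Med22 and Rps25 with Trappc4.

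**Figure D3:**
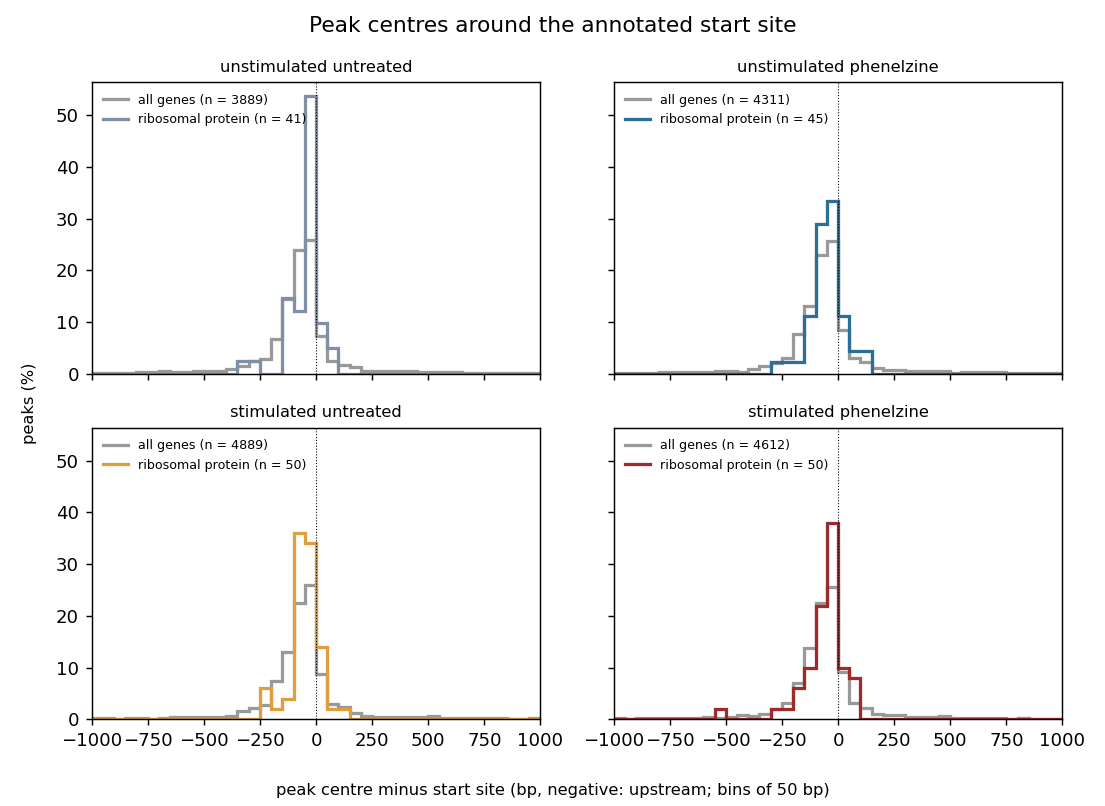
Share of peaks (vertical axis, percent) by the distance of the peak centre from the RefSeq start site (horizontal axis, bp, negative upstream, bins of 50 bp, centres within 1000 bp) for ribosomal protein genes (coloured) and all genes (grey) in each list. The member medians, from -47 to -31 bp, lie nearer the start than the medians of all genes, from -62 to -57 bp.

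More ribosomal protein genes had a gene-end peak in the stimulated untreated list than in the unstimulated untreated one. The same held over all protein-coding genes, at 29.3% against 23.0%. Between unstimulated untreated and stimulated untreated cells, 56 members had a peak in both, 13 (14.6%) only after stimulation and 1 (1.12%) only without it. Across all genes the shares were 8.15% and 1.94%. Among genes held by either list, however, the stimulated list alone held 18.6% of the members and 26.1% of all genes. The 13 were Rpl37a, Rpl7a, Rpl11, Rpl18, Rpl13, Rpl10a, Rplp2, Rps13, Rps15a, Rps25, Rps27a, Rps23 and Rps28. Of these, Rpl18 also had a peak at its listed start, outside the window. That peak was in both lists, with fold enrichments of 6.64 in unstimulated untreated and 6.15 in stimulated untreated cells. Their median −log10 q in the stimulated list was 3.81, beside 5.51 for the 56 held by both. The single member in the other direction was Rps16, whose product touches the transfer RNA in the P site, with fold enrichments of 6.08, 7.09 and 5.65 in unstimulated untreated, unstimulated phenelzine and stimulated phenelzine cells. With lists of equal length the counts were 10 and 5, beside 5.0% and 4.31% of all genes, and with only peaks of −log10 q of at least 3 they were 26 and 3, beside 8.52% and 2.35%.

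Rpl37a (chr1:72711260-72713813), a zinc-binding protein of the large subunit, had the strongest peak among members absent from some list. Its fold enrichment was 8.73 in unstimulated phenelzine, 8.91 in stimulated untreated and 7.90 in the stimulated phenelzine list, with −log10 q of 10.16, 10.48 and 8.38. Its peaks, 102 to 133 bp wide, were centred 0 to 10 bp after the start. In unstimulated untreated cells the nearest peak lay 117567 bp away. The other 7 members missing only from the unstimulated untreated list had weaker peaks in the other 3. Rps27a, which makes ubiquitin fused to a ribosomal protein, had 4.23, 4.61 and 4.4. Rpl10a had 4.25, 5.98 and 6.42, Rpl7a had 4.99, 6.56 and 4.92, and Rps13 had 5.04, 6.13 and 5.90. Rpl11, the partner of Rpl5 in MDM2 binding, had 4.65, 4.55 and 5.69. Rps23, at the decoding centre, had 5.19, 4.81 and 4.56, and Rps25 had 4.95, 4.76 and 4.11. These 8 genes were 8.99% of the members, and 2.82% of all genes had the same pattern. That list was the shortest of the 4.

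In phenelzine-treated cells fewer members were held by the stimulated list alone than in untreated cells, 9 beside 13. All genes went the same way, at 5.54% beside 8.15%. With lists of equal length these member counts were 9 and 10. The stimulated phenelzine list alone held 9 members (10.1%, beside 5.54% of all genes), the unstimulated phenelzine list alone held 3 (3.37%, beside 3.73%), and 61 were in both. Among genes held by either list the shares were 12.3% of members against 17.8% of all genes, and 4.11% against 12%. The 9 included Rpl12, Rpl35, Rpl6, Rpl18, Rplp0, Rps27, Rps15a and Rps19bp1, and the 3 were Rpl23a, Rps28 and Rpl36a. Their median −log10 q was 2.55 and 2.60, lower than the 4.06 and 3.32 of the 61 shared genes in the same lists. With only peaks of −log10 q of at least 3 the counts were 15 and 7, beside 5.68% and 3.72% of all genes, and with lists of equal length 9 and 6, beside 4.69% and 4.58%. Whether the effect of stimulation differed between the arms was not tested. Only Rps15a and Rpl18 had a peak in each stimulated list and no unstimulated one (2.25% of members, beside 1.69% of all genes). Rps15a, which contacts the central domain of small subunit RNA, had fold enrichments of 5.33 and 5.97 and −log10 q of 3.81 and 4.64. Rpl18 showed the same pattern only through the window. Its counted peaks (4.01 and 4.22) were centred at -2738 and -2783 bp from the listed start, at the outer gene end, while a peak at the listed start was present in all lists with 6.64, 5.53, 6.15 and 5.14.

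The unstimulated phenelzine and unstimulated untreated lists each held ribosomal protein genes that the other lacked, as they did for all genes. The unstimulated phenelzine list alone held 12 members (13.5%, beside 5.90% of all genes) and the unstimulated untreated list alone 5 (5.62%, beside 3.37%), with 52 in both. Among genes held by either list the shares turned round, at 17.4% of members against 20.4% of all genes and 7.25% against 11.7%. With lists of equal length the counts were 11 and 8, beside 4.67% and 4.46% of all genes, and with only peaks of −log10 q of at least 3 they were 16 and 8, beside 5.25% and 4.33%. Besides the 8 missing only from unstimulated untreated cells, the 12 included Rpl29, Rpl8, Rps28 and Rpl36a. The 5 were Rpl12, Rpl35, Rps27, Rplp0 and Rps19bp1, each with a peak in both stimulated lists. Rps27, a zinc-finger protein of the small subunit, had fold enrichments of 5.78, 6.30 and 4.98 in the 3 lists that held it. Rpl12, at the base of the stalk, had 4.97, 6.09 and 4.63, and Rpl35, at the exit of the peptide tunnel, had 4.73, 5.86 and 4.26. Rps19bp1 had 5.20, 5.13 and 5.62. None of the 5 had a fold enrichment above 5.95, that of Rplp0, in unstimulated untreated cells.

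The full stimulated phenelzine and stimulated untreated lists differed at few members in either direction. The stimulated phenelzine list alone held 5 members (5.62%, beside 3.40% of all genes), the stimulated untreated list alone 4 (4.49%, beside 5.27%), and 65 were in both. Of the genes held by either list, 6.76% of members and 10.4% of all genes were in the first set, and 5.41% and 16.1% in the other. With only peaks of −log10 q of at least 3 the counts were 7 and 14 (7.87% and 15.7%), beside 3.44% and 6.74% of all genes. With lists of equal length they were 7 and 6, beside 4.54% and 4.91%. With peaks at the start site only they were 2 and 3. These were 2.90% and 4.35% of members with a known start, beside 3.54% and 5.45% of all such genes. The 5 included Rpl6, Rps16, Rpl29 and Rpl8, and the 4 were Rplp2, Rpl13, Rpl23a and Rps28. Rpl13 had a peak in stimulated untreated cells only, with a fold enrichment of 6.13 and a −log10 q of 5.0. Rpl23a, where the signal recognition particle docks at the tunnel exit, had 6.2, 4.54 and 6.37 in the lists other than stimulated phenelzine. Rpl13 lay just below the member median −log10 q of its list, 5.16. Low values were found elsewhere: Rpl8 had 4.03 and 4.11 and Rpl29 had 4.48 and 4.90 in the phenelzine lists, Rpl6 had 4.03 in stimulated phenelzine cells, and Rpl36a had 4.82 in unstimulated phenelzine cells. Rpl8 and Rpl29 were the members held by both phenelzine lists and no other (2.25%, beside 0.735% of all genes). No member was held by the unstimulated untreated list alone, beside 0.67% of all genes. The 4 comparisons share libraries in pairs, so their counts are not independent.

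**Figure D4:**
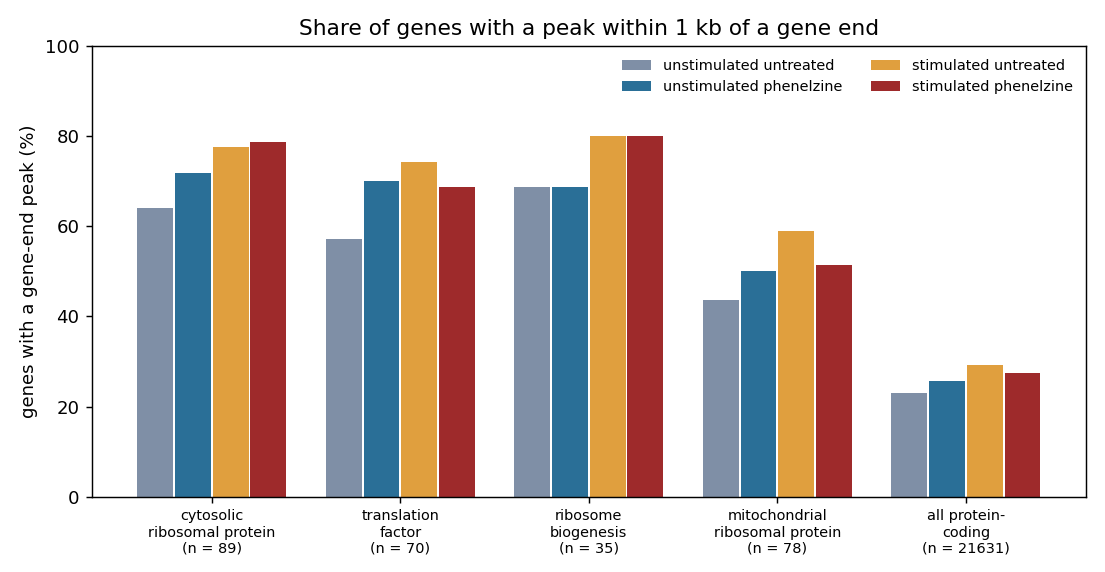
Share of genes with a gene-end peak (vertical axis, percent) in the 4 lists for ribosomal protein genes, the comparison gene lists and all protein-coding genes, 1 library each and hence no error bars. The ribosomal protein genes lie between 64.0% and 78.7% and all genes between 23.0% and 29.3%.

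Absence by the window was not always absence at the promoter. Of the 14 members with no gene-end peak, 7 were canonical: Rpl22, Rpl4, Rpl19, Rps2, Rpl17, Rpl39 and Rps4x. At 3 of these the annotated gene extends beyond a start that RefSeq lists inside it, and all 4 lists had a peak near that start. Rpl19 had fold enrichments of 7.49, 6.52, 6.13 and 6.22 there. Rpl22, whose product is needed for development of alpha-beta T cells, had 5.50, 5.53, 8.62 and 6.28. Rps2, which lies at the mRNA entry, had 6.12, 5.17, 5.89 and 5.23. The paralogue Rps27l had 4.99, 4.64 and 5.03 in the lists other than unstimulated untreated. With peaks anywhere in the gene body or 1 kb beyond it counted, 61, 69, 73 and 74 members had a peak, beside 27.3%, 30.6%, 36.0% and 33.4% of all genes. The canonical genes without any were Rpl4, Rpl17, Rpl39 and Rps4x. The nearest peak to Rpl17 was 2331 to 2384 bp from the gene, to Rps4x 27735 to 27750 bp, to Rpl39 24852 to 178942 bp and to Rpl4 23926 to 75086 bp.

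The start regions of the members held more ETS letters and pyrimidine starts than promoters in general. In windows of 300 bases (250 before to 50 after the start, both strands) the ETS letters CCGGAAG were in 25 of 69 member promoters (36.2%), against 12.1% of 17274 promoters and 23.2% of the 6245 whose gene had a gene-end peak in any list. At 23 of the 25 the match lay inside a called peak, a share that was not counted over all promoters. The YY1 letters AAGATGG were in 10 (14.5%), against 6.40% and 8.45%, the NRF1 letters GCGCATG in 7 (10.1%), Rpl37a among them, against 4.93% and 9.72%, and the SP1 letters GGGCGG in 40 (58.0%), against 46.9% and 68.9%. For SP1 the members lay below the genes with a peak. The E-box CACGTG was in 5 (7.25%), against 8.01% and 11.4%, and TATAAA in 8 (11.6%), against 13.4% and 6.36%. A match lay inside a called peak at 6 of 10 members for YY1, 7 of 7 for NRF1 and 33 of 40 for SP1. For the E-box and TATAAA it was 5 of 5 and 5 of 8. A C at the listed start with at least 4 more pyrimidines was in 14 (20.3%), against 2.19% and 2.32%. Its members included Rpl15, Rpl35, Rplp2, Rps15a, Rps27, Rps6 and Rps18. A match describes the letters and not a bound factor, no matches of different letter motifs overlapped in a member promoter, and a listed start that is off by a few bases hides a pyrimidine start.

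Other genes of the translation machinery were also mostly open. Fau, which encodes a ribosomal protein fused to a ubiquitin-like protein, had fold enrichments of 6.71, 4.52, 5.90 and 5.33. Mrpl49, counted below among the mitochondrial ribosomal protein genes, had the same fold enrichment and −log10 q in every list. A peak counted for both genes would give this. Rack1, a scaffold on the small subunit, had 4.12, 6.89 and 7.31, with no gene-end peak in unstimulated phenelzine cells. Of 15 further genes with TOP messages, 12, 14, 15 and 14 had a gene-end peak and 12 had one in all lists. Eef2, the elongation factor that moves the ribosome along, had 7.43, 6.42, 7.95 and 6.27. Eef1b2 and Eif3h had none in unstimulated untreated cells, and Btf3 had one in stimulated untreated cells only (4.02). Of 35 ribosome biogenesis genes, 24, 24, 28 and 28 had a gene-end peak and 20 (57.1%) were in all lists. Sbds, which releases a factor from new large subunits, had 8.32, 7.67, 8.45 and 5.87. Ubtf, Taf1b and Nop10 had no gene-end peak.

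Of 14 regulators of ribosomal protein output, 11, 7, 10 and 9 had a gene-end peak, and 7 (50%) had one in all lists. Those 7 were Mtor, Rps6kb1, Eif4ebp2, Gabpa, Yy1, Sp1 and Max. Mtor, the kinase that controls TOP messages, had fold enrichments of 6.11, 7.09, 5.74 and 6.42. Eif4ebp2, a translation repressor that mTOR phosphorylates, had 5.17, 5.71, 8.18 and 6.81. Gabpa, an ETS factor, had 5.92, 6.35, 5.77 and 4.99. Myc, an activator of ribosome production, had a gene-end peak only in stimulated untreated cells, with 4.16 and a −log10 q of 2.13. Larp1 had none.

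Beside related families, mitochondrial ribosomal protein genes were open less often in these counts. Of 78, a gene-end peak was present at 34, 39, 46 and 40, in any list at 53 (67.9%) and in all at 27 (34.6%). The highest was Mrpl32, with 8.19, 9.10, 10.91 and 9.39. Of 70 genes named Eif or Eef with a number, most of them translation factors, 40, 49, 52 and 48 had one, 59 (84.3%) in any list and 31 (44.3%) in all. Eif3a, the largest subunit of initiation factor 3, had 9.56, 6.25, 8.45 and 7.60. Ribosomal protein genes, at 84.3% and 56.2%, equalled the translation factor genes in any list and were above both families in the share open in all lists. Counted with their paralogues, they were not above the other lists of translation genes. The 15 further genes with TOP messages stood at 100% and 80%, and the 35 ribosome biogenesis genes at 91.4% and 57.1%. The 77 canonical members alone stood at 90.9% and 59.7%, the latter above the biogenesis genes. These comparison lists share some genes, Npm1 and Eef2 among them.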

How the data were processed

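The submitters' processing notes name the build mm10 and the tools Bowtie2 2.2.5, Trimmomatic 0.33, MACS2, Picard and HOMER, with further versions and parameters not given in the sources used here. The authors deposited 1 broad peak list per library, called without pooling. The deposited columns hold a score, a fold enrichment (a ratio), a −log10 p-value and a −log10 q-value per peak. The score was not used further. Peak names carry the tag less120, whose meaning is not spelled out there. If it limits fragment length, the lists describe short fragments only.

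Peaks and the mm10 gene table were joined with Python 3.11.15 and pandas 2.3.3, and coordinates count from 1. Peaks overlapping 1 kb on either side of either gene end were counted, and the peak with the highest −log10 q represented a gene. Start sites and promoters came from RefSeq tables, which held 69 of the 89 members and 17274 genes. Tested on simulated data with 2000 genes, the join found 100% of 300 planted genes and none of 200 planted outside the window.

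The members, gene lists and alternatives were chosen with earlier results of these data known, and the names counted as paralogues were extended to Rpl37rt, Rpl32l and Rps23rg1 after the gene table was seen. Named with values were the 10 members with the highest lowest −log10 q, members in 1 to 3 lists or in none, Rpsa, the stalk proteins and Rpl37a. Other genes were named after their values were seen. With 1 library per condition no test was made. A few genes are counted but not reported here by name.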

Additional observations from a re-analysis of the deposited data

Results flagged for a closer look

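Rps28, a small subunit protein near the exit of the mRNA channel, went opposite ways with stimulation in the untreated and the phenelzine arm. It had a gene-end peak in unstimulated phenelzine cells, with a fold enrichment of 5.18, and in stimulated untreated cells, with 6.94, and in neither other list. Stimulation thus came with the peak in untreated cells and without it in phenelzine-treated cells, and this difference was not tested. The nearest peaks in the 2 lists without one lay 12514 and 12540 bp from the gene. The peak is within 1 kb of an end of Ndufa7 as well, so the pattern belongs to both genes. Rps28 was the only member with this pattern, 1.12% of the members beside 1.09% of all genes, so the family did not stand out in it. A missing peak may also lie below the caller's limit.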

How the results depend on the processing

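Counts of members with a gene-end peak kept within 1.5 times of the reported ones with a window of 500 bp, with the gene body, and with overlap of the peaks themselves required. Requiring a −log10 q of at least 3 moved most values. Members with a peak then numbered 32 in unstimulated untreated and 40 in unstimulated phenelzine cells, and 21 in all lists. Stimulated untreated and unstimulated untreated cells alone held 26 and 3, and stimulated phenelzine and unstimulated phenelzine cells alone 15 and 7. Unstimulated untreated against unstimulated phenelzine alone held 8, and stimulated untreated against stimulated phenelzine alone 14. At that limit the median fold enrichments were 5.79, 5.66 and 6.0, and the median −log10 q 4.19, 4.0 and 4.64, in unstimulated untreated, unstimulated phenelzine and stimulated phenelzine cells; such a limit raises medians by construction. With lists of equal length, unstimulated untreated cells alone held 5 against stimulated untreated and 8 against unstimulated phenelzine cells, and unstimulated phenelzine cells alone held 6 against stimulated phenelzine. With peaks at the start site only, stimulated phenelzine cells alone held 2 against stimulated untreated. Alternatives chosen after seeing the data were canonical members only, which moved no count by over 1.5 times, and leaving out each list in turn, with 73 to 75 members in any and 51 to 58 in all remaining lists. No paired analysis was possible because each condition has 1 library. Depth is unknown, so a missing peak cannot be told apart from a peak below the caller's limit.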
